A study of Homo sapiens with 12 samples.

Results

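Entry into the cell cycle was followed through 10 genes of the G1 machinery: the CIP/KIP inhibitors CDKN1A (p21) and CDKN1B (p27), the INK4 inhibitors CDKN2A (p16 and ARF), CDKN2C (p18) and CDKN2D (p19), the kinases CDK4 and CDK6, the D-type cyclins CCND2 and CCND3, and RB1. These are 10 of the 55765 genes in the count table, taken by symbol. Of the 10, 9 were among the 11474 genes with enough counts to be tested, and CDK4 was not.

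RNA was sequenced from OCI-AML2, a human acute myeloid leukaemia line, in single-cell clones with a doxycycline-inducible MEF2C construct. MEF2C is a MADS-box transcription factor, and the construct encoded either the wild type (WT) or a protein with alanine in place of serine, S222A. The WT uninduced and S222A uninduced groups received vehicle, and the WT induced and S222A induced groups received 600 ng doxycycline, in each case for 48 h. Each of the 4 groups had 3 libraries, and all groups carry a construct, so doxycycline without one was not measured. The labels give neither the number of clones per construct nor the promoter behind it, and a difference between the lines cannot be told apart from a difference between clones. Replicates are not said to be separate cultures, and the p-values reflect only the spread between these libraries, which may be technical.

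In G1, D-type cyclins activate CDK4 and CDK6, which phosphorylate the RB1 protein and so free E2F factors to switch on the genes of DNA replication. INK4 proteins bind CDK4 and CDK6 and keep the cyclin away, while p21 and p27 bind cyclin-kinase complexes and inhibit CDK2. In blood cells CDK6 and cyclin D3 are the prominent pair, p18 limits the division of stem cells, and p21 and p27 increase as myeloid cells mature.

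The promoter stretches of the 4 inhibitor genes that passed the test in some comparison or other are shown first, because the results turn on these genes. Each is the 250 bases before a transcription start in RefSeq, build GRCh38.p14, written 5′ to 3′ on the gene's strand. Capitals mark GC boxes (GGGCGG, or CCGCCC on the other strand, the motif of SP factors) and, in CDKN1B alone, a match to the MEF2 consensus. CDKN2C has 3 listed starts, and the window with the most GC boxes is given.
CDKN1A, chr6:36678464-36678713, plus strand: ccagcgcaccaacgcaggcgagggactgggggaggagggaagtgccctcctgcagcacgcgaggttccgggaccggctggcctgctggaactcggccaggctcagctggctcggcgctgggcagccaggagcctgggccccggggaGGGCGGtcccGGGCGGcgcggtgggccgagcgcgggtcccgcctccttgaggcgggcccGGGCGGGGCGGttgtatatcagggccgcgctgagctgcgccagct
CDKN1B, chr12:12717118-12717367, plus strand: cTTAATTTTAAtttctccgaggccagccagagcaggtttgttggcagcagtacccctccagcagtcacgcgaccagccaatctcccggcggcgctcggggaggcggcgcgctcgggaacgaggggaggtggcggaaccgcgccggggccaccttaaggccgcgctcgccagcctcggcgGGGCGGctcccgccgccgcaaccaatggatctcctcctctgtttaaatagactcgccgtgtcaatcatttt
CDKN2C, chr1:50968456-50968705, plus strand: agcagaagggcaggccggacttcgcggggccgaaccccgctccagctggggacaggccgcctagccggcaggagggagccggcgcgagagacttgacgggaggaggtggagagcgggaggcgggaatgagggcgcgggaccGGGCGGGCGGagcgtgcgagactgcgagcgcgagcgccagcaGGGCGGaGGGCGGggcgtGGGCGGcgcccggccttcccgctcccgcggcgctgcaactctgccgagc
CDKN2D, chr19:10568980-10569229, minus strand: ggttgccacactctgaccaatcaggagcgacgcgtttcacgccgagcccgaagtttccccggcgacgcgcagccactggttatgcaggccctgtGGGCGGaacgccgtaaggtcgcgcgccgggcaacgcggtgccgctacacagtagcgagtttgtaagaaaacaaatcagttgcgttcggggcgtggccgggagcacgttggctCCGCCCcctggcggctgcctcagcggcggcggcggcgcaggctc
The CDKN1A window held 4 GC boxes, CDKN1B 1, CDKN2C 5 and CDKN2D 2, on both strands and with overlapping matches counted. Of the 15 windows listed for 9 of the 10 genes, 10 held a GC box, against 42.6% of all 35116 windows of this length. The MEF2 consensus, searched on both strands, was found in 1 of the 15, that of CDKN1B, starting 249 bases before the start site, against 2.8% of all windows. The E2F sites TTTCCCGC and TTTGGCGC, the FOXO core GTAAACA and the TATA box TATAAA had no match in the 15 windows, and stood in 1.39%, 0.55%, 2.98% and 10.7% of all windows. Only listed starts were searched. RB1 had 1 window (chr13:48476200-48476449, 36.8% GC), and the absence of a match does not cover any other start of that gene. The E-box CACGTG stood in 3 of the 15, 2 of them other starts of CDKN2C, and in 6.34% of all windows. A match is only a run of letters and no evidence of binding.

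Library totals ranged from 875710 to 13134791 counts. The deepest library of each group (replicate 2 of WT uninduced, 1 of WT induced, 1 of S222A uninduced and 3 of S222A induced, with 5412391 to 13134791 counts) is known from earlier work on these files to lie apart from the other 8. Mitochondrial RNA was 5.03 to 7% of counts in those 4 and 6.86 to 9.27% in the others. Of 10 genes listed as markers for myeloid progenitors and AML, not all of them particular to those cells, 9 had counts. Among them PTPRC was at 516 to 760 and CD33 at 27.5 to 58 counts per 1e6 counts (CPM). CEBPA was at 0 in every library and CD34 at 0 to 0.41 CPM. FLT3 was at 64.1 to 111, CSF3R at 46.6 to 76.2 and SPI1 at 35 to 73.1 CPM. KIT, MPO and ANPEP were low, at 0 to 7.58, 0.693 to 19.3 and 0 to 1.1 CPM. The summed level of all 10 markers was 786 to 999 CPM. Most of this sum was PTPRC, so it says little on the other markers. The sums were 5.79 to 42.2 CPM for T and NK cell markers and 0 to 3.29 for B cells. They were 0 to 2.52 for erythroid and megakaryocyte cells, 12.4 to 37.2 for epithelial cells and 0 to 5.2 for fibroblasts. Most of the T and NK sum was NKG7 (5.53 to 41.8 CPM), with CD3D, CD3E and CD8A at most 1.73, 0.146 and 0.817 CPM. Nearly all of the epithelial sum was CDH1 (12.4 to 37.2 CPM).

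MEF2C itself, the gene of the construct, had 747, 645 and 817 CPM in the WT uninduced libraries and 674, 844 and 812 in the WT induced ones. In the S222A line it had 605, 701 and 802 CPM uninduced and 920, 956 and 786 induced. The groups overlapped in both lines, and the log2 fold change on induction was 0.08 ± 0.16 (SE) in the WT line and 0.34 ± 0.16 in the S222A line (adjusted p = 1 and 0.285, edgeR). Counts per symbol hold transcripts of the construct and of the cell's own gene together, so induction is named below after the labels.

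The 4 comparisons between groups and the difference between the lines in their response to induction were tested with edgeR's quasi-likelihood F test, with p-values adjusted over all 11474 genes by the Benjamini-Hochberg method. A gene was called where the adjusted p was under 0.05. On induction in the S222A line 2 of the 9 tested members were called, CDKN2C and CDKN2D, both higher. In the same comparison 4.45% of all genes were called, 2.8% higher and 1.66% lower. In the WT line 0 of the 9 were called by edgeR, by DESeq2 or by limma-voom, against 0.00872% of all genes. CDKN2D, the member with the smallest unadjusted p there (0.0449), was also the only one of the 9 with an unadjusted p under 0.05. Of all 11474 genes, 195 had such a p in the WT line. Between the induced lines 3 of 9 were called, CDKN1A, CDKN1B and CDKN2C, all higher with S222A (6.34% of all genes), and between the uninduced lines 1 of 9, CDKN1A (0.392% of all genes). The 2 comparisons of each line with itself share their libraries with the 2 comparisons between lines.

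**Figure D1:**
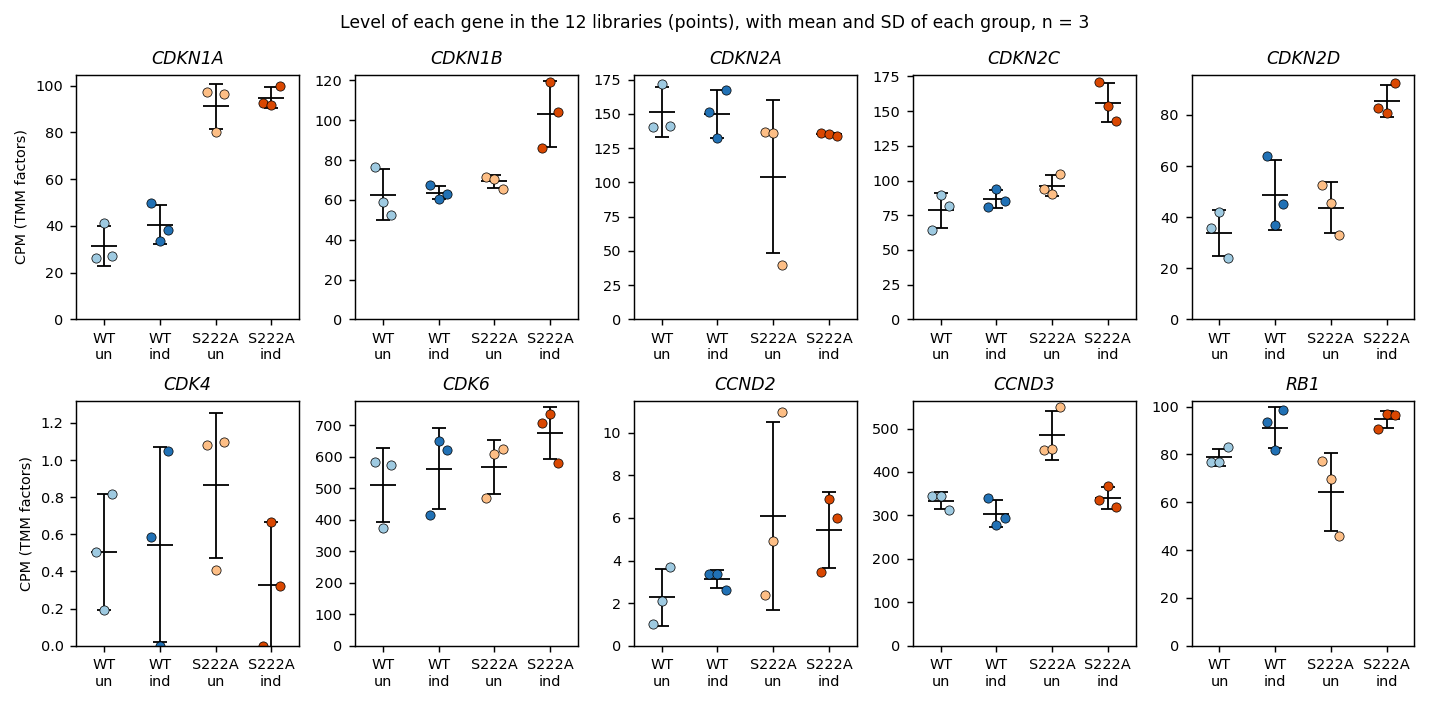
Level of each of the 10 genes in CPM with TMM factors (vertical axes, linear, each from 0), in the 4 groups on the horizontal axes (un, uninduced; ind, induced). Points are libraries in replicate order, bars the mean and SD of 3 libraries, with SD bars stopped at 0; CDKN1A is higher in all 6 S222A libraries than in any WT library, and CDKN2C and CDKN2D are highest in the 3 S222A induced libraries.

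CDKN1A encodes p21, the inhibitor that p53 switches on after DNA damage. Its level was 26.2, 41.3 and 27 CPM in the WT uninduced libraries and 49.7, 33.6 and 38.2 CPM in the WT induced ones. It was 97.2, 80 and 96.4 CPM in the S222A uninduced libraries and 92.5, 91.9 and 100 CPM in the S222A induced ones. All 6 S222A libraries lay above all 6 WT libraries, while uninduced and induced libraries overlapped within each line.

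Between the uninduced lines CDKN1A was 2.85-fold higher with S222A (95% interval 2.09 to 3.88), a log2 fold change of 1.51 ± 0.21 (SE, adjusted p = 0.005, edgeR, n = 3 a group). Between the induced lines it was 2.29-fold higher (1.69 to 3.1), log2 1.20 ± 0.20 (adjusted p = 0.00478). The difference was thus present before doxycycline, and induction moved CDKN1A by log2 0.06 ± 0.20 in the S222A line (95% interval -0.36 to 0.48) and 0.37 ± 0.21 in the WT line (-0.08 to 0.82), neither called. Without WT uninduced replicate 1 the difference between the uninduced lines had an adjusted p of 0.0511, and it stayed called in the other 19 of 20 alternative settings. CDKN1A was highest in the deepest library of all 4 groups, as were 17.4% of all genes tested. Within the deepest libraries alone the log2 difference between the uninduced lines was 1.22, and within the other libraries 1.71.

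CDKN1B encodes p27, which holds cyclin E-CDK2 in resting cells and whose gene is a classical FOXO target. It had 76.7, 59.1 and 52.3 CPM in WT uninduced libraries, 67.4, 60.5 and 63.2 in WT induced, 71.5, 70.6 and 65.7 in S222A uninduced, and 86.2, 119 and 104 in S222A induced. The 3 S222A induced libraries were the highest of the 12, and the other 3 groups overlapped.

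Between the induced lines CDKN1B was 1.61-fold higher with S222A (95% interval 1.25 to 2.09, log2 0.69 ± 0.17, adjusted p = 0.0329, edgeR). This call was lost in 7 of 12 fits that left out 1 library: adjusted p = 0.154 without S222A induced replicate 2, 0.0972 without replicate 3 of that group, 0.0616, 0.102 and 0.127 without WT induced replicates 1, 2 and 3, and 0.0511 and 0.0612 without S222A uninduced replicates 1 and 2. It was also lost with no filter on low counts (0.0558). On induction CDKN1B changed by log2 0.57 ± 0.17 in the S222A line (adjusted p = 0.0813, not called) and by 0.03 ± 0.18 in the WT line (adjusted p = 1). The difference of these effects was 0.54 with a 95% interval of 0.01 to 1.07 (unadjusted p = 0.0482, adjusted p = 0.743).

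CDKN2C encodes p18, an INK4 inhibitor whose loss enlarges the pool of dividing haematopoietic stem cells in mice. Its level was 64.6, 89.6 and 81.3 CPM in WT uninduced libraries and 81.1, 94.2 and 85 CPM in WT induced ones. It was 93.6, 90.3 and 105 CPM in S222A uninduced libraries and 171, 154 and 143 CPM in S222A induced ones. The S222A induced libraries stood above all others, and the S222A uninduced libraries above the WT uninduced ones by a narrow margin (lowest 90.3 against highest 89.6).

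CDKN2C rose 1.62-fold on induction in the S222A line (95% interval 1.29 to 2.05, log2 0.70 ± 0.16, adjusted p = 0.0251, edgeR). Its counts behind these values were 96 to 1794 a library in that line. The call was lost without S222A uninduced replicate 1 (0.081) or 2 (0.104), without S222A induced replicate 1 (0.115) or 2 (0.069). In all 20 alternative settings the log2 change lay between 0.63 and 0.77. In the WT line the change was log2 0.13 ± 0.16 (95% interval -0.21 to 0.47), not called. The difference between the lines in this response was 0.57, with a 95% interval of 0.09 to 1.05, and was not called (unadjusted p = 0.0233, adjusted p = 0.68).

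Between the induced lines CDKN2C was 1.81-fold higher with S222A (1.43 to 2.28, log2 0.85 ± 0.16, adjusted p = 0.00755). It stayed called in all 20 alternative settings, with an adjusted p of at most 0.0429. Within the deepest libraries alone the log2 difference was 0.81, and within the others 0.86.

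CDKN2D encodes p19, the INK4 inhibitor whose RNA peaks in S phase. It had 35.8, 41.9 and 24.1 CPM in WT uninduced libraries and 63.9, 37 and 45.3 in WT induced ones. It had 52.6, 45.6 and 32.9 CPM in S222A uninduced libraries and 82.8, 80.9 and 92.4 in S222A induced ones. Again the 3 S222A induced libraries were the highest of the 12, and the other 3 groups overlapped.

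CDKN2D rose 1.91-fold on induction in the S222A line (95% interval 1.33 to 2.73, log2 0.93 ± 0.24, adjusted p = 0.0464, edgeR), the largest change among the 9 members there. This call rests on most of the libraries. It was lost without any 1 of 8 of the 12 libraries: WT uninduced replicate 1 (0.0803), WT induced replicate 3 (0.0694), S222A uninduced replicates 1, 2 and 3 (0.0732, 0.152 and 0.128), and S222A induced replicates 1, 2 and 3 (0.129, 0.114 and 0.139). The size moved less than the call, with log2 changes of 0.79 to 1.10 over the 20 settings.

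In the WT line CDKN2D changed by log2 0.55 ± 0.25 (95% interval 0.01 to 1.08), and the difference between the lines in the response was 0.38 ± 0.34 (interval -0.36 to 1.13, adjusted p = 0.949). The data therefore do not separate its response in the S222A line from that in the WT line. Between the induced lines it was 1.71-fold higher with S222A (adjusted p = 0.0737, not called, although the 3 libraries of each group did not overlap). CDKN2D, like CDKN1A, was highest in the deepest library of all 4 groups. With a term for those libraries in the model the difference between the induced lines was called (log2 0.78, adjusted p = 0.000937), and so it was without them (0.95, adjusted p = 0.015).

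CDKN2A, which gives rise to p16 and, from another first exon, to ARF, was the inhibitor with the most counts. The table counts reads per symbol, so p16 and ARF are not separated. Its level was 140, 172 and 141 CPM in WT uninduced libraries, 151, 132 and 167 in WT induced, 137, 136 and 39.4 in S222A uninduced, and 136, 135 and 134 in S222A induced. The low S222A uninduced replicate 3 had 36 counts, with an exact Poisson 95% interval of 27.6 to 54.6 CPM, so counting error alone does not reach the other libraries. CDKN2A was not called in any comparison, and its log2 change on S222A induction was 0.33 ± 0.31 with that library and -0.02 without it. RB1 (46 CPM, 42 counts) and CDKN2D (32.9 CPM, 30 counts) were also lowest in S222A uninduced replicate 3 among that group's libraries, while CCND3 was highest there.

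CDK4 and CDK6 are the kinases that INK4 proteins inhibit. CDK4 had 0 to 9 counts in every library, at most 1.1 CPM, and was not tested. In the GENCODE v29 annotation 43.2% of its exon bases are shared with TSPAN31 on the opposite strand, whose own level was 1.55 to 5.48 CPM. CEBPA, at 0 in every library, shares 43.4% of its exon bases with other genes. The strand setting of the counting is not known here, its part was not tested, and the CDK4 values are not read as its level in these cells.

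CDK6 was the member with the most counts, with 583, 373 and 573 CPM in WT uninduced and 414, 649 and 622 in WT induced libraries. It had 467, 609 and 623 CPM in S222A uninduced and 708, 736 and 581 in S222A induced libraries, so that all 4 groups overlapped. Its log2 change on induction was 0.25 ± 0.22 in the S222A line (95% interval -0.22 to 0.73) and 0.14 ± 0.22 in the WT line (-0.33 to 0.61), and it was not called in any of the 20 settings in any comparison. CDK6 was lowest in the deepest library of all 4 groups, as were MEF2C and 15.4% of all genes tested.

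CCND3, the cyclin D3 of lymphoid and myeloid precursors, was the only member whose groups separated downwards on induction. It had 345, 345 and 313 CPM in WT uninduced and 339, 279 and 294 in WT induced libraries. It had 451, 452 and 550 CPM in S222A uninduced and 335, 367 and 319 in S222A induced libraries. The 3 S222A uninduced libraries were the highest of the 12, and the S222A induced libraries overlapped the WT libraries of both groups.

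The log2 change of CCND3 on induction in the S222A line was -0.51 ± 0.14 (95% interval -0.82 to -0.20, adjusted p = 0.0653, edgeR), which was not called. It was called with DESeq2 (adjusted p = 0.0112), with limma-voom (0.0423) and with a term for the deepest libraries (0.00594), and its size was between -0.55 and -0.41 in all 20 settings. Between the uninduced lines the log2 difference was 0.53 ± 0.14 (adjusted p = 0.236), called only with the term for the deepest libraries (0.0254). In the WT line the change on induction was -0.13 ± 0.14, and the difference of the effects was -0.37 (95% interval -0.81 to 0.07, adjusted p = 0.828).

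CCND2, the cyclin D2 that growth factors induce in many blood cells, had 2 to 75 counts a library and 1.01 to 11 CPM. At this depth its changes had wide intervals, log2 -0.97 to 1.29 on S222A induction and -0.86 to 1.71 on WT induction, and none was called. The 3 S222A induced libraries (3.46, 6.91 and 5.98 CPM) lay above the 3 WT induced ones (3.36, 3.36 and 2.63), with an adjusted p of 0.399.

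RB1 encodes the pocket protein at the end of the pathway. It had 76.7, 76.7 and 82.9 CPM in WT uninduced, 93.4, 81.8 and 98.4 in WT induced, 77.2, 69.8 and 46 in S222A uninduced, and 90.7, 96.8 and 96.4 in S222A induced libraries. Uninduced and induced libraries overlapped in the WT line and did not overlap in the S222A line. The log2 change on S222A induction was 0.53 ± 0.17 (adjusted p = 0.11, not called), 0.36 without S222A uninduced replicate 3, and called only with the term for the deepest libraries (adjusted p = 0.019). On WT induction it was 0.22 ± 0.17, and the difference of the effects was 0.30 with an interval of -0.23 to 0.84.

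**Figure D2:**
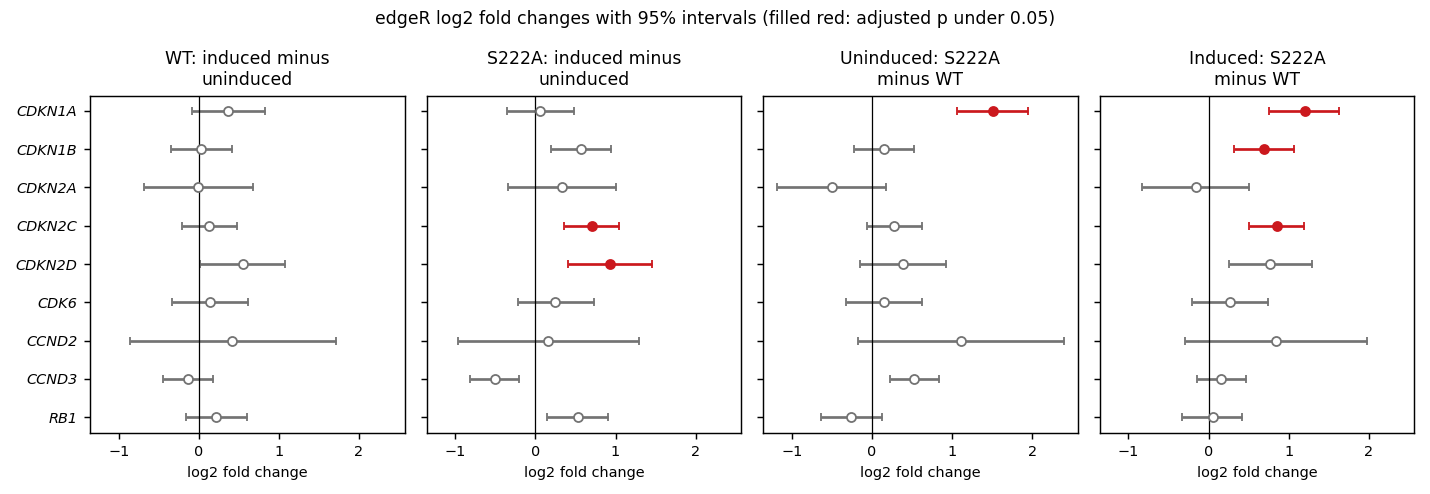
Log2 fold change (horizontal axes) of the 9 tested genes (rows) in 4 comparisons between groups, with 95% intervals from edgeR; filled red points have an adjusted p under 0.05. CDKN2C and CDKN2D were called on S222A induction, CDKN1A between the uninduced lines, and CDKN1A, CDKN1B and CDKN2C between the induced lines.

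Set side by side, the 9 tested members had a median log2 change of 0.33 on S222A induction, with 8 positive and 1 negative, against 0.009 over all genes. On WT induction it was 0.14, with 7 positive and 2 negative, against 0.006. The members whose induced and uninduced libraries did not overlap numbered 5 in the S222A line, 4 higher (CDKN1B, CDKN2C, CDKN2D and RB1) and 1 lower (CCND3), where 27.5% of all genes separated. In the WT line 0 of 9 separated, where 5.79% of all genes did. Between the induced lines 5 separated, all higher with S222A (the 4 inhibitors CDKN1A, CDKN1B, CDKN2C and CDKN2D, and CCND2), against 28% of all genes. Between the uninduced lines 4 separated (CDKN1A, CDKN2C and CCND3 higher, CDKN2A lower), against 12.3%. Of these, CDKN2A (highest 137 against lowest 140 CPM) and CDKN2C (lowest 90.3 against highest 89.6 CPM) separated by narrow margins. So did CCND2 between the induced lines (lowest 3.46 against highest 3.36 CPM).

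The difference between the lines in their response to induction was called for 0 of the 9 members with edgeR, against 0.0784% of all genes. DESeq2 also called 0 of the 9, and 2 (CDKN1B and CDKN2C) had an unadjusted edgeR p under 0.05, as did 766 of all 11474 genes. A change called in the S222A line and not in the WT line is therefore not shown to differ between them for any member. The median difference was 0.30, with 6 positive and 3 negative, against -0.009 over all genes.

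Levels were divided by exon length in kilobases (kb) for a rough comparison between genes. The length takes in all annotated exons of a gene, and which transcripts these cells use was not tested. On this scale CCND3 was highest in all 4 groups. It had 57.6 ± 3.2, 52.4 ± 5.4, 83.5 ± 9.8 and 58.7 ± 4.2 CPM per kb (SD, n = 3) in the WT (uninduced, then induced) and S222A groups (likewise). CDK6 followed in the first 3 groups at 41.6 ± 9.7, 45.8 ± 10 and 46.2 ± 7 CPM per kb. In S222A induced cells CDKN2D (56.8 ± 4.1), CDK6 (55.1 ± 6.7) and CCND3 (58.7 ± 4.2) lay within 1 SD of each other, with CDKN2C next at 47 ± 4.3. In WT uninduced cells CDKN2D (22.6 ± 6), CDKN2C (23.7 ± 3.8) and CDKN1B (22.3 ± 4.5) were within their spread of each other and below CDKN2A (34.9 ± 4.2). CDKN1A had 10.3 ± 2.8 CPM per kb in WT uninduced and 31.1 ± 1.5 in S222A induced cells. RB1 had group means of 9.97 to 14.7 and CCND2 of 0.317 to 0.853. The CDK4 group means of 0.104 to 0.273 are, as said above, not read as its level, so CDK4 has no place in this order.

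The balance between the INK4 inhibitors (CDKN2A, CDKN2C and CDKN2D) and the D-type cyclins (CCND2 and CCND3) can be read as a ratio of their summed CPM per kb in each library. The ratio was 1.27, 1.58 and 1.34 in WT uninduced and 1.73, 1.72 and 1.85 in WT induced libraries. It was 1.22, 1.13 and 0.651 in S222A uninduced and 2.37, 2.05 and 2.43 in S222A induced libraries. The S222A line thus gave both the 3 lowest and the 3 highest ratios, and in both lines the induced libraries lay above the uninduced ones. This sum was formed after the single values were seen and has no test. CDKN2B and CCND1 (cyclin D1), which are not among the 10 genes, were left out of the ratio. Their group means were 2.65 to 4.2 and 3.38 to 7.92 CPM. The CDKN2A counts in the ratio also hold ARF. The lowest ratio belongs to S222A uninduced replicate 3, the library with little CDKN2A.

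**Figure D3:**
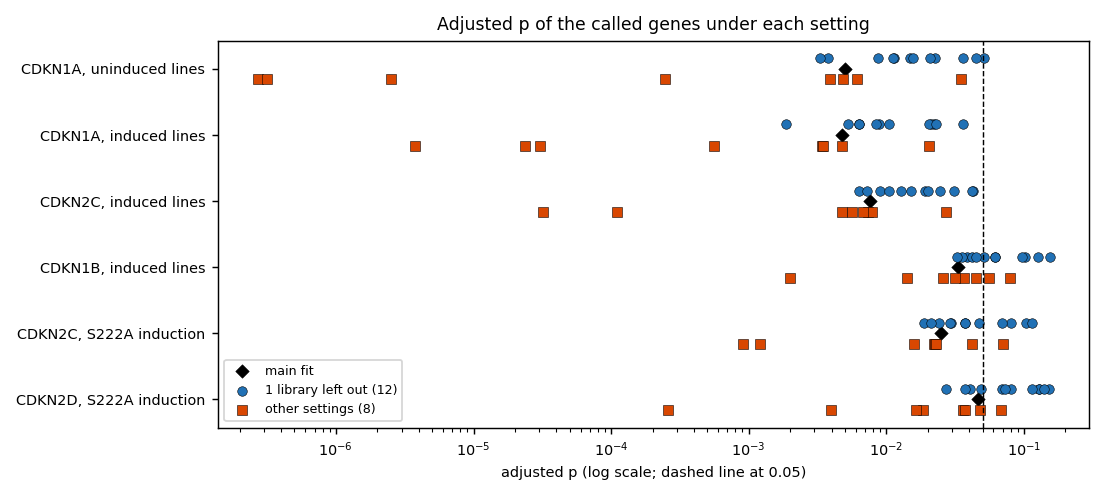
Adjusted p (horizontal axis, log scale) of the 6 calls of members in the main fit (black diamonds), in 12 fits that leave out 1 library each (blue circles) and in 8 other settings (orange squares), with the threshold of 0.05 dashed. The 2 calls between the induced lines for CDKN1A and CDKN2C lie left of the line throughout, and the calls on S222A induction and of CDKN1B lie on both sides of it.

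The genes most like CDKN2C over the 12 libraries, by Pearson correlation of log2 CPM among 8844 genes, were PAM (r = 0.976), CERKL (0.957) and VMP1 (0.949). For CDKN2D they were PQLC3 (0.973), C16orf72 (0.969) and METTL7A (0.967). These correlations are descriptions over libraries that share groups and depth. PAM, an enzyme that amidates peptides, had group means of 20.9, 24.8, 25.8 and 44.5 CPM in the WT (uninduced, then induced) and S222A groups (likewise). METTL7A had 20.2, 32.6, 26.3 and 70.6 CPM in the same order, highest like CDKN2D in S222A induced cells.

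Further genes of the pathway were taken from 5 lists. Of 14 further inhibitors, cyclins, kinases and pocket proteins of G1, 13 were tested and 1 fell on S222A induction, where 1.66% of all genes were called lower. This was CDC25A, the phosphatase that removes the inhibitory phosphates from CDK2. CDC25A went from 77.6, 75.5 and 82.1 CPM to 50.9, 39.9 and 47.9 CPM, with no overlap (0.591-fold, 95% interval 0.468 to 0.746, adjusted p = 0.0152). It lost its call in 4 of 12 fits that left out 1 library (S222A uninduced replicates 1 and 2, S222A induced replicates 2 and 3) and with no filter on low counts. On WT induction CDC25A changed by log2 -0.06 ± 0.16. CCNE1 (cyclin E1, log2 -0.40), CDKN3 (a phosphatase of CDKs, -0.50) and RBL1 (p107, -0.43) were not called on S222A induction, and the median of the 13 was -0.11. CDKN1C (p57) had no counts in any library.

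Of the 10 E2F and DP factors 0 were called on S222A induction by edgeR or DESeq2, with a median log2 change of -0.24. E2F7, a repressor E2F, was at 0.50 (unadjusted p = 0.0439, edgeR), the 1 of the 10 with an unadjusted p under 0.05. Such a p was found for 2193 of all 11474 genes. E2F6, E2F1 and E2F8 were at -0.29, -0.35 and -0.25.

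Another list held target genes of E2F that act at the start of S phase. Of 20 such genes, all tested, 4 fell and 0 rose on S222A induction, where 1.66% of all genes were called lower and 2.8% higher, and all 20 log2 changes were negative (-0.82 to -0.24, median -0.49, against 0.009 over all genes). The 4 were MCM3, MCM4 and MCM7, subunits of the replicative helicase, and MYBL2, a transcription factor of cycling cells. MCM7 went from 328, 298 and 373 CPM to 232, 228 and 217 CPM (log2 -0.56 ± 0.13, adjusted p = 0.0332), MCM4 from 284, 321 and 348 to 199, 212 and 185 CPM (-0.67 ± 0.16, adjusted p = 0.0358). The induced libraries lay below the uninduced ones for 13 of the 20 genes, where 27.5% of all genes separated in either direction. MCM3 (-0.56, adjusted p = 0.0425) and MYBL2 (-0.82, adjusted p = 0.049) were close to the threshold. Fewer cells in S phase and less of this RNA in each cell cannot be told apart in bulk RNA, and the same holds for the inhibitors.

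The number of E2F target genes called was 0 without S222A uninduced replicate 2 or any 1 of the 3 S222A induced libraries, 1 without WT uninduced replicate 1, WT induced replicate 3 or S222A uninduced replicate 1 or 3, 2 without WT uninduced replicate 3, 1 with no filter on low counts, 8 with DESeq2 and 14 with a term for the deepest libraries. On WT induction 0 of the 20 were called by edgeR or DESeq2, with 16 negative and 4 positive changes and a median of -0.17. There 0 of the 20 had an unadjusted edgeR p under 0.05, against 195 of all 11474 genes. The difference between the lines was called for 0 of the 20 by either tool, with a median of -0.34. It had an unadjusted edgeR p under 0.05 for 1 of the 20, against 766 of all 11474 genes.

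**Figure D4:**
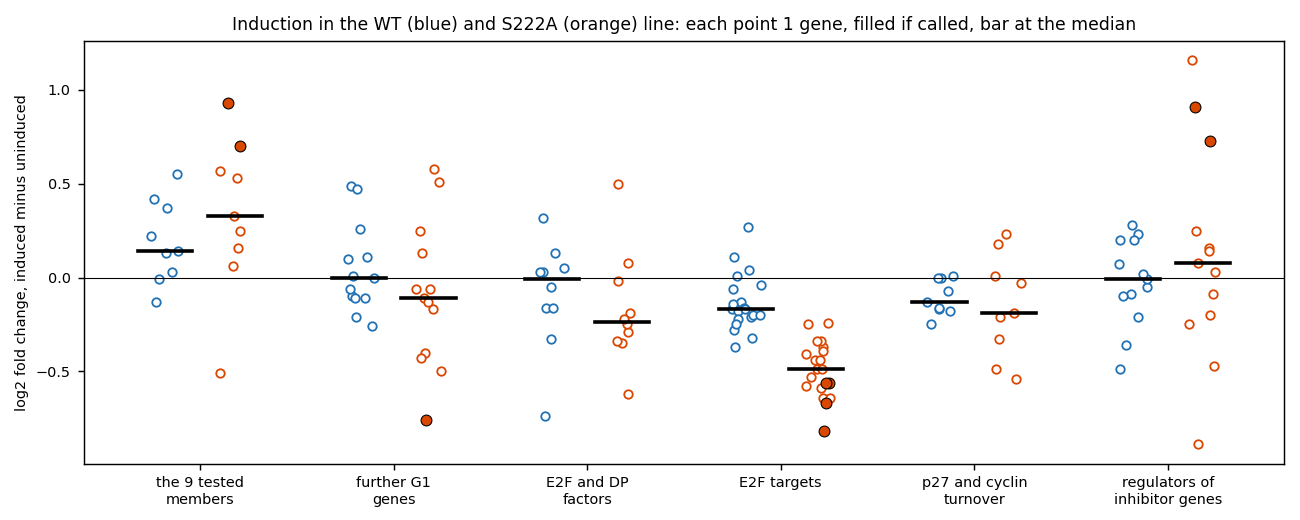
Log2 fold change on induction (vertical axis) in the WT line (blue) and the S222A line (orange) for the 9 tested members and the tested genes of 5 lists (horizontal axis). Each point is 1 gene, filled where called, and black bars are medians; in the S222A line the members' median is 0.33 and that of the E2F targets -0.49.

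Of 10 genes for the breakdown of p27 and of G1 cyclins 9 were tested, and 0 were called on S222A induction with edgeR (1 with DESeq2). USP10, a deubiquitinase, was the 1 gene of the 9 with an unadjusted edgeR p under 0.05, at a log2 change of -0.54 (adjusted p = 0.0638). Of all 11474 genes, 2193 had such an unadjusted p. FBXW7, the ubiquitin ligase receptor for cyclin E, was at 0.18, SKP2, the receptor for p27, at -0.33, and CUL1, their scaffold, at -0.19. SKP2 had 43.6, 40.2 and 15.3 CPM in S222A uninduced and 28.1, 23.4 and 31.6 CPM in S222A induced libraries, which overlap through replicate 3 of the uninduced group.

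Of 14 transcriptional regulators of inhibitor genes 13 were tested, and 2, FOXO3 and BMI1, rose on S222A induction, where 2.8% of all genes were called higher. FOXO3, a forkhead factor that activates the p27 gene, went from 40.7, 36.9 and 33.9 CPM to 63.4, 73.1 and 74.7 CPM (1.87-fold, 95% interval 1.43 to 2.46, adjusted p = 0.0137). BMI1, a Polycomb protein that represses CDKN2A, went from 106, 117 and 82.1 to 167, 168 and 177 CPM (1.66-fold, 1.27 to 2.18, adjusted p = 0.0397). Neither group pair overlapped. CBX7, another Polycomb protein, was at log2 1.16 (adjusted p = 0.0931) and MYC, which represses several inhibitor genes, at -0.89 (adjusted p = 0.217). On WT induction FOXO3 changed by 0.23 ± 0.19, BMI1 by 0.07 ± 0.18, CBX7 by -0.49 ± 0.38 and MYC by -0.21 ± 0.37, none called. The difference between the lines in the response was called for 0 of the 13 by edgeR or DESeq2. It had an unadjusted edgeR p under 0.05 for 3 of them, and for 766 of all 11474 genes. The 3 were FOXO3 at log2 0.67, BMI1 at 0.66 and CBX7 at 1.65 (adjusted p = 0.68, 0.68 and 0.522). MYC was called lower with S222A between the induced lines (log2 -1.47, adjusted p = 0.0389), where FOXO3 was called higher (0.86, adjusted p = 0.0154). Before induction MYC was at log2 -0.79 with S222A (adjusted p = 0.687, edgeR, not called). Its level was 231, 211 and 53.7 CPM in S222A uninduced and 251, 337 and 284 CPM in WT uninduced libraries. These groups did not overlap, by a narrow margin (highest 231 against lowest 251). The low value, of S222A uninduced replicate 3, rests on 49 counts. The number of these regulators called on S222A induction was 0 without S222A uninduced replicate 2 or S222A induced replicate 2 or 3, and 1 without WT uninduced replicate 1 or 3, WT induced replicate 3, S222A uninduced replicate 1 or S222A induced replicate 1.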

How the data were processed

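The authors deposited raw counts per gene symbol for 12 libraries, made from TruSeq RNA libraries per the labels' protocols. The submitters' processing notes name hg19 as the build, and STAR 2.4, HTSeq 0.6.1 and DESeq2 as tools, in no stated order or role. No source used here gives the annotation release or strand setting. How reads in exon stretches shared with an antisense neighbour were assigned is therefore not known. The S222A columns carry no mutation in their names and were matched through the sample descriptions.

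Genes were kept with edgeR's filterByExpr (minimum count 10), leaving 11474 genes with 99.47% of the counts. All 12 libraries were fitted in 1 model (edgeR 4.0.16 in R 4.3.3, TMM factors, robust quasi-likelihood F test, 8 residual degrees of freedom, biological coefficient of variation 24.8%), with Benjamini-Hochberg adjustment over all genes tested. Standard errors (SE) come from the log2 fold change and its F, as |log2| over the root of F. CPM are counts per 1e6 with TMM factors, and correlations used log2 CPM with a prior count of 2. A floor of 3 counts equals 0.228 to 3.43 CPM, for counting error only. Exon lengths are unions of GENCODE v29 exons on another build and were used only as lengths and for overlaps. Promoter windows were searched for exact letters on both strands.

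Alternatives were DESeq2 size factors or upper quartile factors, no filter, DESeq2 1.42.0, limma-voom (limma 3.58.1), a replicate block, a term for the deepest library of each group, leaving those libraries out, and leaving out each library. The code was tested on simulated data.

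Named genes are the 10 members, MEF2C, up to 4 genes per list with the smallest adjusted p on S222A induction, and the 3 genes most correlated with CDKN2C and CDKN2D among those with a mean log2 CPM of at least 3. Members and lists were chosen with earlier results of these data known.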

Additional observations from a re-analysis of the deposited data

How the results depend on the processing

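The number of members called on S222A induction was 2 in the main analysis and ranged from 0 to 2 when 1 library was left out. It was 0 under the replicate block and 5 with a term for the deepest library of each group (CDKN1B, CDKN2C, CDKN2D, CCND3 and RB1). It was 2 with either other normalization, without a filter and without the deepest libraries, and 3 with DESeq2 and with limma-voom. Between the uninduced lines the number was 1, with 2 under the term for the deepest libraries (CDKN1A and CCND3) and 0 to 1 when 1 library was left out. Same-numbered libraries had correlations of -0.53 to 0.64 between their deviations from group means. Between the deepest libraries these correlations were 0.61 to 0.76. Those libraries carry different numbers across the groups, except in WT induced and S222A uninduced, where both are replicate 1. That pair gave the 0.64 at the top of the same-numbered range, and the next highest same-numbered value was 0.32. The correlations therefore cannot decide whether the numbers pair libraries. The replicate block gave CDKN2C and CDKN2D on S222A induction adjusted p-values of 0.0703 and 0.0681 (edgeR). It gave CDKN1B between the induced lines 0.0795, and changed no other call of a member. No called member changed direction in any alternative. Of all genes, 511 were called on S222A induction, against 235 under the replicate block and 2052 with the term for the deepest libraries. The number was 727 with DESeq2, 704 with limma-voom and 187 to 580 when 1 library was left out. Between the uninduced lines 45 were called, against 91 without the filter, 68 with DESeq2, 22 under the replicate block, 218 with the term for the deepest libraries and 17 to 48 when 1 library was left out. Low counts limit CCND2 (2 to 75 counts) and left CDK4 (0 to 9 counts) untested. The cause of the low CDK4 counts was not tested. Clone and construct cannot be told apart.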
